A study of Mus musculus with 8 samples.

Results

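Insulin-like growth factor 1, the receptors for it and for insulin, and the first intracellular steps below them were followed in 8 member genes: the ligand Igf1, the receptors Igf1r, Igf2r and Insr, the binding protein Igfbp4, the adaptors Irs1 and Irs2, and the transcription factor Foxo1. The members were chosen by name from the 21742 genes of the count tables other than mitochondrial genes, and each had its own row in them. All 8 had at least 1 UMI (unique molecular identifier, which stands for 1 captured RNA molecule) in 4 of the 8 libraries, and 7 of the 8 did in the other 4, where Irs1 was at 0.

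The libraries hold single CD45+ cells sorted from skin wounds of male C57BL/6J mice. The diabetic groups were made diabetic with streptozotocin (STZ, 120 mg/kg, given at 4 weeks of age), which destroys insulin-producing beta cells and so models loss of insulin rather than insulin resistance. The control groups were wounded mice of the same strain without diabetes. Wounds were taken on days 1, 3, 5 and 7, with 1 library of 5 pooled mice for each of the 8 conditions, so the spread between mice was not measured and no test within a single day was possible. The CD45 gene Ptprc had a UMI in 77.2% of all cells kept, in 86.9% of T cell-like cells and in 62.8% of the 51 fibroblast-like cells.

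After the filter 35158 of 38959 barcodes remained, with 18814802 to 32956113 UMIs per library. Control day 5 stood apart, with 28.6% of its barcodes removed against 1.00 to 10.8% in the other 7, and with a median of 8234 UMIs per cell against 2575 to 5219. The cells were clustered without the members, and clusters were named from marker genes: neutrophil-like (13811 cells), macrophage-like (6117), monocyte-like (5542), dendritic-like (2841), T cell-like (2455), osteoclast-like (379), NK cell-like (550), fibroblast-like (51) and mast cell-like (148). A cluster of 3264 cells with a median of 1004.5 UMIs, led by Gm26917 and Malat1, stayed unnamed. Barcodes are running names in every table, so cells shared between libraries could not be counted, but no profile of a kept cell occurred more than once.

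IGF1 is a small secreted hormone that resembles insulin, made by the liver and, within tissues, by macrophages and fibroblasts, and in wounds it is known to favour the growth of new tissue. It acts through the IGF1 receptor, a tyrosine kinase that is a close relative of the insulin receptor. Both receptors phosphorylate the adaptors IRS1 and IRS2, which switch on PI3K and AKT, and AKT in turn keeps FOXO1 out of the nucleus. Binding proteins such as IGFBP4 hold the hormone and limit its access to the receptor, and IGF2R, the mannose 6-phosphate receptor, carries lysosomal enzymes and takes up IGF2 without being a kinase.

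The members lie apart in the genome (build GRCm38, GENCODE annotation, all protein-coding). Igf1 spans chr10:87858265-87937042 on the plus strand and Igfbp4 spans chr11:99041244-99054392 on the plus strand. Igf1r spans chr7:67952827-68233668 on the plus strand, Igf2r chr17:12682406-12769664 on the minus strand and Insr chr8:3122061-3279617 on the minus strand. Irs1 spans chr1:82233101-82291416 on the minus strand, Irs2 chr8:10984681-11008458 on the minus strand and Foxo1 chr3:52268336-52353221 on the plus strand. The 250 bases before the RefSeq start site are shown for Igf1 and Igfbp4 because macrophage-like cells held most of the UMIs of both. They lie at chr10:87860861-87861110 and chr11:99040994-99041243, both on the plus strand of GRCm38.p6, and capitals mark the TATA box letters TATAAA, which were found only in the Igfbp4 window, 28 bases before its start. The Igf1 window lies inside the gene span given above and so precedes a start within that span. The Igfbp4 window ends directly before its gene span.
Igf1: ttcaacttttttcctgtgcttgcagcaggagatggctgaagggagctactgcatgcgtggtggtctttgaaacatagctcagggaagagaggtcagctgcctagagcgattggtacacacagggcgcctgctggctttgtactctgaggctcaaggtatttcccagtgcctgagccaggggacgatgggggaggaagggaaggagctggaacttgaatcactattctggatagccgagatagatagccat
Igfbp4: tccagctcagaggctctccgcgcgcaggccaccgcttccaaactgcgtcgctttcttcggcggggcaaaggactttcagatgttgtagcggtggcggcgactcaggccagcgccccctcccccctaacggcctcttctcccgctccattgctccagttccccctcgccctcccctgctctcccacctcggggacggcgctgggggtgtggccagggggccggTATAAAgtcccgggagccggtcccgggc
The Igf1 stretch held 52.8% G and C, and the Igfbp4 stretch 69.2%. TATAAA, searched on both strands, stood in 12.4% of 32851 RefSeq mouse promoters of 300 bases and in 1 of the 7 members with an entry. The letters GTAAACA, the core that FOXO factors bind, stood in 3.17% of promoters, and TGCTGAC, the core of the MAF sites found at macrophage genes, in 3.81%. Neither was in the window of any of the 7 members, which says only that these letters are not in these bases.

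Of the 7 members with more than a few UMIs, Igf1 differed most between libraries. In all cells of a library it was at 4.25, 27.0, 30.9 and 188 CPM (the usual scaled unit, UMIs of the gene relative to the UMIs of all genes in the same cells) in diabetic wounds on days 1, 3, 5 and 7. In control wounds it was at 7.71, 27.7, 263 and 277 CPM on the same days. The levels of both groups were low on day 1, close to each other on day 3 and high on day 7, and the high level was already there on day 5 in control wounds alone. The diabetic level was 0.552 of the control on day 1 (exact 95% interval 0.415 to 0.729, which here and below covers counting error only), 0.975 on day 3 (0.870 to 1.09), 0.118 on day 5 (0.108 to 0.127) and 0.679 on day 7 (0.654 to 0.705).

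Macrophage-like cells held 74.5% of the 22993 Igf1 UMIs with 17.4% of the cells. Their share of cells was 1.37, 10.9, 4.33 and 25.6% in diabetic wounds on days 1, 3, 5 and 7, and 1.72, 10.6, 44.9 and 49.4% in control wounds. The counts depended on the naming. In diabetic wounds 65, 592, 181 and 934 cells became 905, 1701, 894 and 1334 at clustering resolution 0.4. In control wounds 76, 507, 1465 and 2297 became 631, 1907, 2342 and 2491. Named singly, each cell from its own highest marker score, 144, 940, 301 and 753 diabetic cells were macrophage-like. The control counts were then 208, 789, 1761 and 1282. In a library as a whole, fewer cells of a type and less RNA per cell cannot be told apart, so the level was also taken within the class. There Igf1 was at 133, 106, 236 and 364 CPM in diabetic wounds and at 304, 97.4, 396 and 363 CPM in control wounds.

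Within macrophage-like cells the lowest 2 levels were thus those of day 3 in control wounds and day 3 in diabetic wounds, and the day 7 levels were alike. The diabetic level was 0.439 of the control on day 1 (0.286 to 0.656, from 32 and 108 UMIs), 1.09 on day 3 (0.95 to 1.26), 0.596 on day 5 (0.533 to 0.666) and 1.00 on day 7 (0.956 to 1.05). The 8.51-fold gap of the whole libraries on day 5 (7.86 to 9.23) therefore stood beside a 1.68-fold gap per macrophage-like UMI (1.5 to 1.88) and a macrophage-like share of 4.33 against 44.9% of cells. That share gap was smaller at clustering resolution 0.4, with 894 of 4183 diabetic and 2342 of 3266 control cells macrophage-like. With cells named singly 301 and 1761 of them were.

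**Figure D1:**
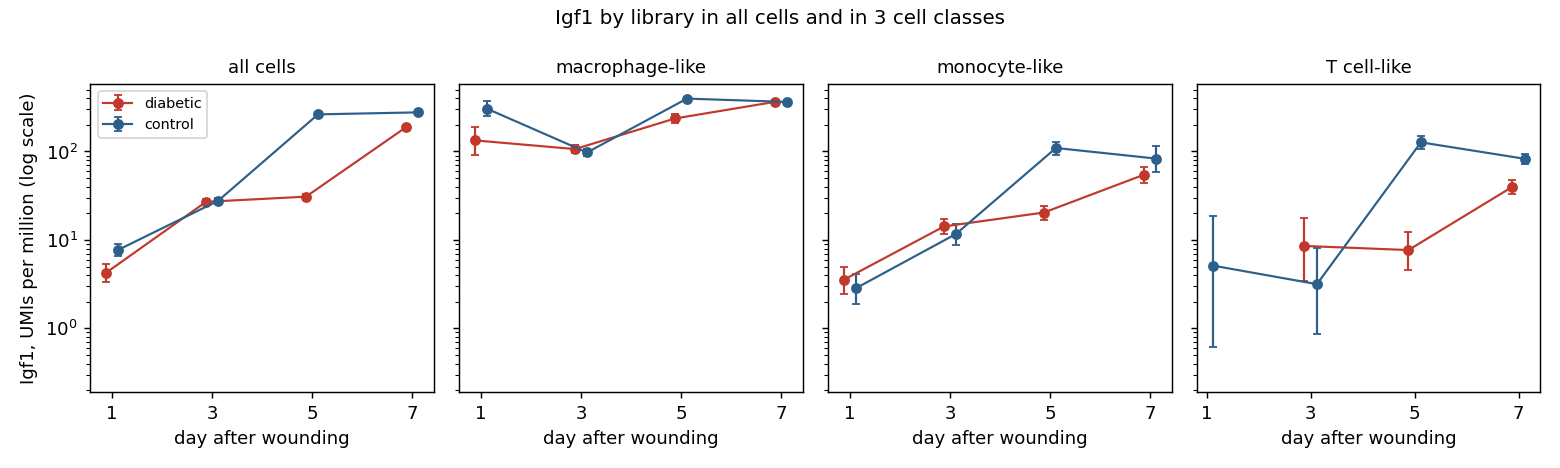
Igf1 in CPM (log axis) against day after wounding, in all cells and in 3 cell classes, for diabetic (red) and control (blue) libraries. Points are single libraries and bars are exact 95% Poisson intervals; the T cell-like level of 0 in diabetic day 1 is not drawn. The control line of all cells is at 263 on day 5 and the diabetic line at 30.9, while the macrophage-like lines meet on day 7 at 363 and 364.

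The day effect on Igf1 passed the test within macrophage-like cells. The test compares the 4 days over both wound groups (edgeR quasi-likelihood F test, adjusted p = 0.0152), and the level was 0.82 higher on the log2 scale on day 7 than on day 1. It was 1 of 7 members tested to pass, where 1.55% of all 10681 genes tested did. Without day 3 the adjusted p was 0.202, and in the other 14 alternative settings the call was kept. The markers of fibroblasts, which also make IGF1, summed to 33.0 to 125 CPM in macrophage-like cells of the days 1 to 5 and to 286 and 580 CPM on day 7 in diabetic and control wounds, with 1 of 5 markers at 0 in 3 libraries, and their part in the result was not tested.

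All 3 macrophage-like clusters carried Igf1. The cluster led by Ccl8, Retnla and Lyve1, genes of resident-type macrophages, had 185, 256, 394 and 447 CPM in diabetic wounds on days 1 to 7 and 503, 259, 518 and 483 CPM in control wounds. The cluster led by Gpnmb, Ms4a7 and Selenop had 18.3 (1 UMI), 54.4, 220 and 265 CPM in diabetic wounds and 200, 68.1, 377 and 418 CPM in control wounds. In both clusters the diabetic level was below the control on each of the 4 days, but the exact intervals overlapped on days 3, 5 and 7 in the Ccl8 cluster and on day 3 in the Gpnmb cluster.

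The third macrophage-like cluster was led by Gdf15, Igf1 itself and Apoe, and its Igf1 level is therefore a description of it. It had 28.7, 147 and 353 CPM on days 3, 5 and 7 in diabetic wounds and 101, 226 and 346 CPM in control wounds, and under 20 cells on day 1. It made up 81.5 and 86.6% of macrophage-like cells on day 7 in diabetic and control wounds and 6.76 to 22.1% before, whereas the Gpnmb cluster fell from 36.9 to 68.5% on days 1 to 5 to 4.07 and 1.61%. Different clusters thus held most of the macrophage-like cells on day 7 and before it. The clustering made no correction between libraries, so a change of the cells by day and a difference between libraries cannot be told apart here.

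Shares per cell were taken after thinning each cell to 1000 UMIs, which left out the 3620 kept cells with fewer. Of macrophage-like cells 20.9% then had an Igf1 UMI (1215 of 5814), against 50.8% of all 6117 before thinning (median 8364 UMIs per cell). T cell-like cells, which are not known to make IGF1 and served as a measure of free RNA, gave 2.29% (median 3915 UMIs). The share of macrophage-like cells was 10.9, 10.1, 15.6 and 21.6% in diabetic wounds and 16.7, 7.14, 27.0 and 22.8% in control wounds. The exact intervals of the 2 groups overlapped on days 1, 3 and 7 but not on day 5 (10.4 to 22.2% against 24.7 to 29.4%). The T cell-like share was 0, 0.602, 0.226 and 2.63% in diabetic wounds and 1.00, 0.422, 8.50 and 4.02% in control wounds. This measure of free RNA thus differed on day 5 as well, and its part in the macrophage-like difference was not tested.

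**Figure D2:**
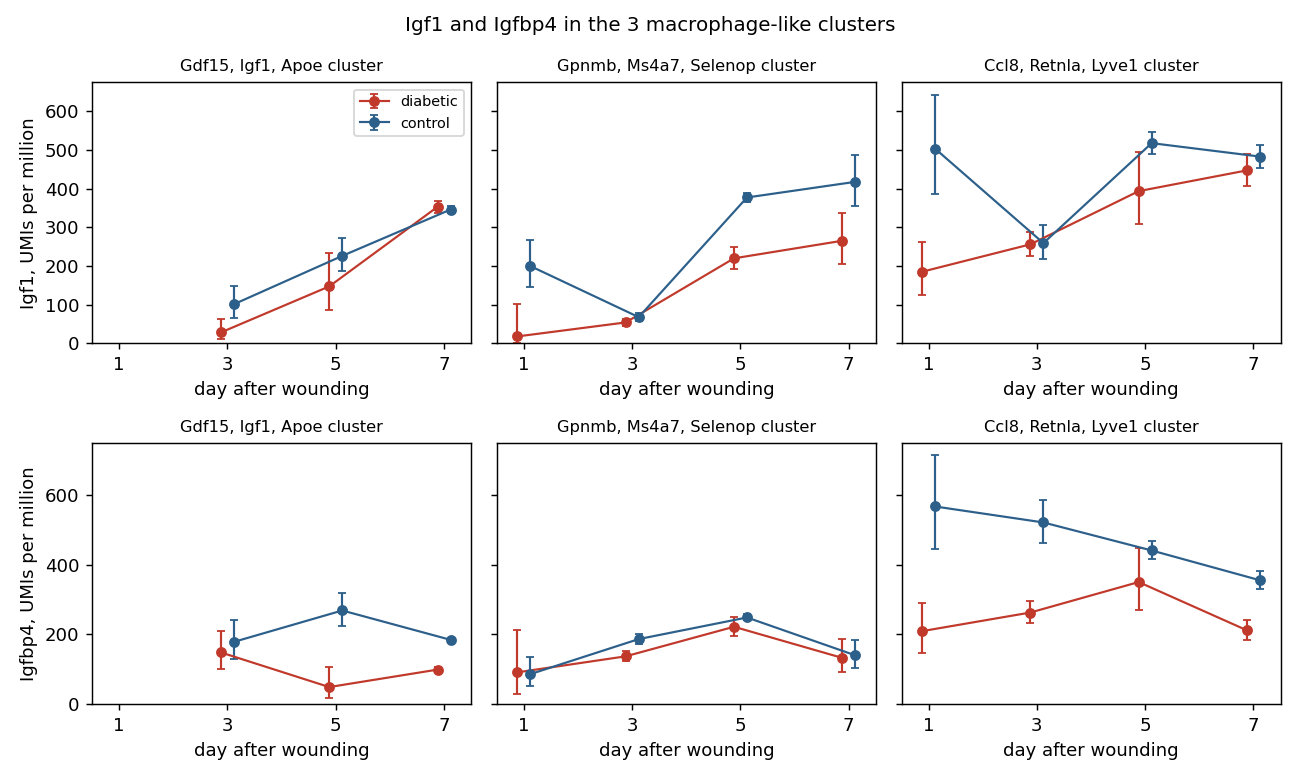
Igf1 (upper row) and Igfbp4 (lower row) in CPM against day, in the 3 macrophage-like clusters, for diabetic (red) and control (blue) libraries with 20 or more cells in the cluster. Bars are exact 95% Poisson intervals. Each Igf1 line has its highest point on day 5 or 7, and Igfbp4 of the Ccl8 cluster is lower in diabetic wounds on all 4 days.

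Fibroblast-like cells had 1269 CPM of Igf1 (exact interval 1170 to 1374) in control day 7, the only library with 20 or more of them. These 22 cells held 609 UMIs, or 6.68% of the Igf1 of that library. In control day 5 and diabetic day 7 the fibroblast-like cells, 10 and 7 in number, held 0.841 and 0.693%.

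T cell-like cells had 0, 8.55, 7.69 and 39.9 CPM in diabetic wounds and 5.13, 3.17, 127 and 82.6 CPM in control wounds, highest in the control libraries of days 5 and 7. Monocyte-like cells had 3.56, 14.2, 20.4 and 54.6 CPM in diabetic and 2.85, 11.7, 109.5 and 83.1 CPM in control wounds, and their thinned share of cells with an Igf1 UMI was 1.01% over all libraries. Library by library this share was above that of T cell-like cells in 7 of 8, for example 6.00 against 2.63% in diabetic day 7, but the exact intervals of the 2 shares overlapped in all 8. By CPM the monocyte-like level was above in 6 of 8, with intervals apart in 2, diabetic day 5 and control day 3. In cells whose own highest marker score matched their cluster name, monocyte-like Igf1 was at 1.98, 6.91, 6.77 and 40.1 CPM in diabetic wounds. In control wounds it was at 2.425, 7.69, 18.1 and 74.0 CPM there. Against T cell-like cells chosen alike, the intervals overlapped in diabetic day 5 and control day 3. In control day 5 the monocyte-like level was the lower (5.88 to 42.3 against 88.6 to 134, from 5 UMIs). The unnamed cluster had 25.9 to 221 CPM, above T cell-like cells in each of the 8 libraries. The day effect passed the test in monocyte-like cells (edgeR, 4.29 higher on the log2 scale on day 7 than on day 1, adjusted p = 0.00756, where 1.94% of all genes tested passed), and it was lost without day 1 (adjusted p = 0.13) and without day 7 (adjusted p = 0.101). Macrophage markers, none of 10 at 0, summed to 3537 to 14830 CPM in monocyte-like cells, lowest on day 1, and to 887 to 9626 CPM in T cell-like cells, highest in control day 5. Their part in these levels was not tested.

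In neutrophil-like cells Igf1 went from 0.715, 7.05 and 25.9 to 266.5 CPM in diabetic wounds and from 0.533 and 5.94 to 233 and 181 CPM in control wounds. The day effect passed (edgeR, 7.48 higher on the log2 scale on day 7 than on day 1, adjusted p = 0.0011), in a class in which 25.7% of all genes tested passed. Without day 1 the adjusted p of Igf1 was 0.0546 and 0.331% of all genes passed. Of the Igf1 UMIs of this class, 93.2% in diabetic day 7, 93.6% in control day 5 and 81.9% in control day 7 lay in the 10% of cells with the most UMIs. Macrophage markers in neutrophil-like cells summed to 450, 2994, 2221 and 10940 CPM in diabetic wounds and to 633, 1934, 9187 and 11590 CPM in control wounds, with 0 of 10 at 0.

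The neutrophil-like levels were therefore repeated in the cells whose own highest marker score gave the same name as their cluster, a check added after seeing the data. These were 48.8 to 91.9% of the class, with 48.8 and 57.0% on day 7 and 91.9 and 91.8% on day 1. In them Igf1 was at 0.157, 2.51, 2.73 and 33.0 CPM in diabetic wounds and at 0.588, 0.514, 36.7 and 60.2 CPM in control wounds. On day 7 the diabetic level was the higher in the whole class and the lower in these cells. Macrophage markers still summed to 323 to 5086 CPM in these cells, highest in control day 7. The day effect on Igf1 passed there too (6.26 higher on the log2 scale on day 7, adjusted p = 0.000781 by edgeR, with 7.7% of genes passing), and the part of macrophage RNA in it was not tested. By CPM the whole class was above T cell-like cells in 6 of 8 libraries, with intervals apart in 4. Between neutrophil-like and T cell-like cells with agreeing names, the Igf1 intervals overlapped on day 7 in both wound groups. They were 22.3 to 47.1 against 24.7 to 37.9 CPM in diabetic and 48.2 to 74.2 against 53.8 to 75.8 CPM in control wounds. In control day 5 the neutrophil-like level was the lower (21.0 to 59.6 against 88.6 to 134 CPM).

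Igfbp4, like Igf1, had most of its UMIs in macrophage-like cells. In all cells it was at 12.0, 63.2, 36.5 and 66.9 CPM in diabetic wounds and at 17.8, 79.8, 207 and 155 CPM in control wounds, lower in the diabetic library on each of the 4 days. Macrophage-like cells held 65.8% of its UMIs, and the 22 fibroblast-like cells of control day 7 had 367 CPM, above the 203 CPM of macrophage-like cells there. Within them it was at 167, 171, 223 and 117 CPM in diabetic wounds and at 256, 234, 281 and 203 CPM in control wounds.

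Igfbp4 was thus lower in diabetic macrophage-like cells on all 4 days. The diabetic level was 0.651 of the control on day 1 (0.437 to 0.954), 0.732 on day 3 (0.662 to 0.808), 0.796 on day 5 (0.708 to 0.892) and 0.576 on day 7 (0.533 to 0.622). Over the 4 days the difference was -0.55 on the log2 scale (SE 0.13), which did not pass after adjustment (edgeR with day as a block, adjusted p = 0.364, between 0.0302 and 1 over 16 alternatives). The lowest of these came without a filter on low counts and was the only alternative that called it. The difference was also negative in monocyte-like (-0.56), neutrophil-like (-0.54), dendritic-like (-0.74) and T cell-like cells (-1.61), and passed in none (edgeR, adjusted p 0.523 to 0.999). As the measure of free RNA, T cell-like cells had 3.83, 45.2, 12.4 and 22.1 CPM in diabetic wounds. In control wounds they had 7.69, 33.2, 161 and 61.4 CPM. The part of free RNA in the macrophage-like difference was not tested.

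The lower Igfbp4 level was clearest in the Ccl8, Retnla and Lyve1 cluster, which had the highest pooled level of the 3 macrophage-like clusters at 364 CPM. There it was at 209, 263, 350 and 212 CPM in diabetic wounds and at 566, 520, 440 and 355 CPM in control wounds, and day 5 was the only day on which the exact intervals met (269 to 447 against 415 to 466). In the Gdf15 cluster it was at 148, 49.2 (6 UMIs) and 99.1 CPM on days 3, 5 and 7 in diabetic wounds and at 179, 268 and 184 CPM in control wounds. In the Gpnmb cluster it was at 91.4, 137, 222 and 133 CPM in diabetic wounds and at 86.3, 187, 248 and 140 CPM in control wounds, and the intervals were apart on day 3 only (124 to 152 against 172 to 202).

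Among thinned macrophage-like cells of all libraries 21.5% of those with an Igf1 UMI and 15% of those without had an Igfbp4 UMI. Within libraries the share was higher beside Igf1 in 5 of 8, and the exact intervals were apart in control day 7 only (18.8 to 26.1% against 12.1 to 15.4%). Over the 53 sums of a class in a library with 50 or more cells, the levels of the 2 genes had a Pearson r of 0.798 on a log2 scale of CPM plus 10. These sums share libraries and are not independent, and the part of macrophage RNA in this r was not tested.

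The day effect on Igfbp4 passed in monocyte-like cells (1.27 higher on day 7 than on day 1 on the log2 scale, adjusted p = 0.0322) and in neutrophil-like cells (3.35 higher, adjusted p = 0.00231, and 2.54 higher with adjusted p = 0.0233 in the cells whose names agreed, all by edgeR). By CPM the neutrophil-like level went from 3.57 on day 1 to 54.9 on day 7 in diabetic wounds. In control wounds it went from 3.07 to 91.9 CPM. Without day 1 the adjusted p of Igfbp4 was 0.899 in monocyte-like and 0.144 in neutrophil-like cells. In monocyte-like cells the Igfbp4 call was also lost without day 7 (adjusted p = 0.115), with cells named singly (adjusted p = 0.064) and with agreeing names (adjusted p = 0.303). The thinned share of cells with an Igfbp4 UMI was 2.35% in monocyte-like and 1.32% in neutrophil-like cells against 3.12% in T cell-like and 16.3% in macrophage-like cells over all libraries. Library by library the share was above that of T cell-like cells in 5 of 8 in monocyte-like and in 2 of 8 in neutrophil-like cells, and the exact intervals of the shares overlapped in all 8 for both. By CPM of the whole classes the intervals were apart upwards in diabetic day 5 and downwards in control day 5 in monocyte-like cells. In neutrophil-like cells they were apart upwards on day 7 in both wound groups and downwards in diabetic day 3 and control day 5. The upward direction on day 7 was not kept in either wound group in the neutrophil-like cells whose names agreed. Their level was below that of all T cell-like cells in both, with overlapping intervals. These were 5.278 to 20.24 against 17.28 to 27.91 CPM in diabetic and 35.3 to 58.07 against 52.02 to 72.05 CPM in control wounds.

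**Figure D3:**
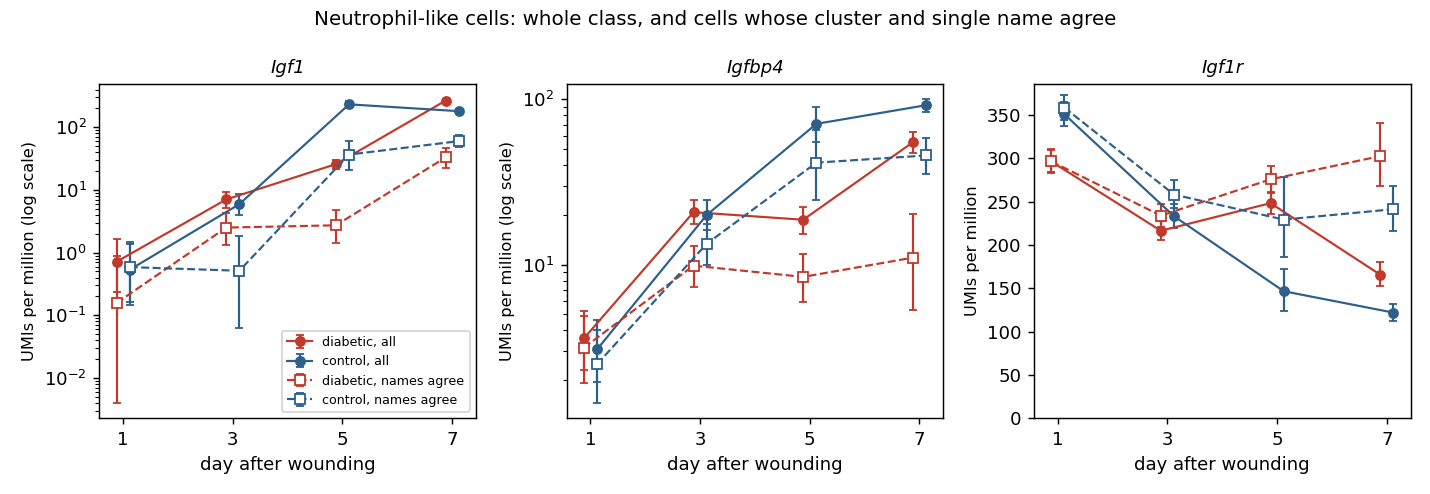
Igf1, Igfbp4 (log axes) and Igf1r (linear axis from 0) in CPM of neutrophil-like cells against day, for the whole class (filled points, solid lines) and for cells whose cluster and single name agree (open squares, dashed lines). Bars are exact 95% Poisson intervals. On day 7 Igf1r is at 166 and 122 in the whole class but at 303 and 241 in the cells whose names agree.

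Igf1r, the signalling receptor, was led by another class than its ligand. Neutrophil-like cells held 68.3% of its 14896 UMIs with 39.3% of the cells, and their mean level was 223 CPM (SD 77.4, n = 8 libraries). Mast cell-like cells followed with 144 CPM (SD 23.4, n = 4 libraries), and T cell-like cells with 65.7 CPM (SD 26.2, n = 8). Macrophage-like, monocyte-like and dendritic-like cells, at 35.8, 29.0 and 28.0 CPM (SD 9.40, 4.2 and 3.23), lay within their spread of each other.

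In all cells Igf1r was at 130, 87.2, 94.7 and 58.4 CPM in diabetic wounds and at 162.5, 75, 25.8 and 50.7 CPM in control wounds. Control day 5 was the lowest library, and the diabetic level was 3.68-fold that of the control there (3.38 to 4.00), against 0.799 on day 1, 1.16 on day 3 and 1.15 on day 7. Neutrophil-like cells were 51.5, 49.4, 45.9 and 21.3% of cells in diabetic and 60.0, 41.4, 7.99 and 23.3% in control wounds, so the day 5 gap went with a neutrophil-like share of 45.9 against 7.99%.

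Within neutrophil-like cells Igf1r was at 297, 217, 248 and 166 CPM in diabetic wounds and at 351, 233, 147 and 122 CPM in control wounds. The day effect passed (edgeR, fell by 2.29 on the log2 scale from day 1 to day 7, adjusted p = 0.0119), and without normalization factors it fell by 1.19 (adjusted p = 0.0433). Without day 1 the adjusted p of Igf1r was 0.158, and without day 7 it was 0.221. The Igf1r call was also lost with cells named singly, and it was kept in 10 of 14 alternative settings. In the cells whose names agreed the levels were 297, 234, 276 and 303 CPM in diabetic wounds and 359, 258, 229 and 241 CPM in control wounds, and the call was lost (fell by 0.89, adjusted p = 0.0736). In diabetic wounds the day 7 level of these cells was thus no lower than that of day 1. Between the 5 neutrophil-like clusters the order of the levels differed from library to library. The cluster led by Il23a, Il1a and Ccl3 had 432.5 and 442 CPM on day 1 in diabetic and control wounds and 176 and 177 CPM on day 7, and the cluster led by Ighg2b and Igkc, transcripts of antibody genes, had 577.5 and 424 CPM on day 1 (54 and 42 UMIs) and 164.5 and 129.5 CPM on day 7. The Ighg2b cluster made up 58.6 and 86.9% of neutrophil-like cells on day 7 and 3.52 to 41.8% before.

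Igf1r was higher in diabetic macrophage-like cells on each day. The levels were 50.03, 33.9, 44.1 and 40.7 CPM in diabetic and 36.6, 24.6, 22.0 and 34.1 CPM in control wounds, on day 1 from 12 and 13 UMIs. The ratio was 2.01 on day 5 (1.51 to 2.63) and 1.19 on day 7 (1.03 to 1.38). The groups overlapped, and over the days the difference of 0.53 on the log2 scale (SE 0.18) did not pass (edgeR, adjusted p = 0.522). Neutrophil markers, 0 of 8 at 0, summed to 3460, 2395, 1423 and 1091 CPM in these cells in diabetic and to 3261, 1488, 247 and 1431 CPM in control wounds, higher in the diabetic library on days 1, 3 and 5, and their part was not tested.

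In T cell-like cells Igf1r lay mostly in the cluster led by Trdc, Il17f and Tcrg-C1, genes of gamma delta T cells that make interleukin 17. That cluster had 128 CPM (exact interval 118 to 139) against 21.3 CPM (18.1 to 24.9) in the cluster led by Ctla4, Trac and Icos, genes of alpha beta and regulatory T cells. By library the Trdc cluster had 133, 85.2, 114 and 179 CPM in diabetic and 233, 119, 62.6 and 136 CPM in control wounds. Every one of these 8 levels was above the 8.70 to 29.2 CPM of the Ctla4 cluster.

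**Figure D4:**
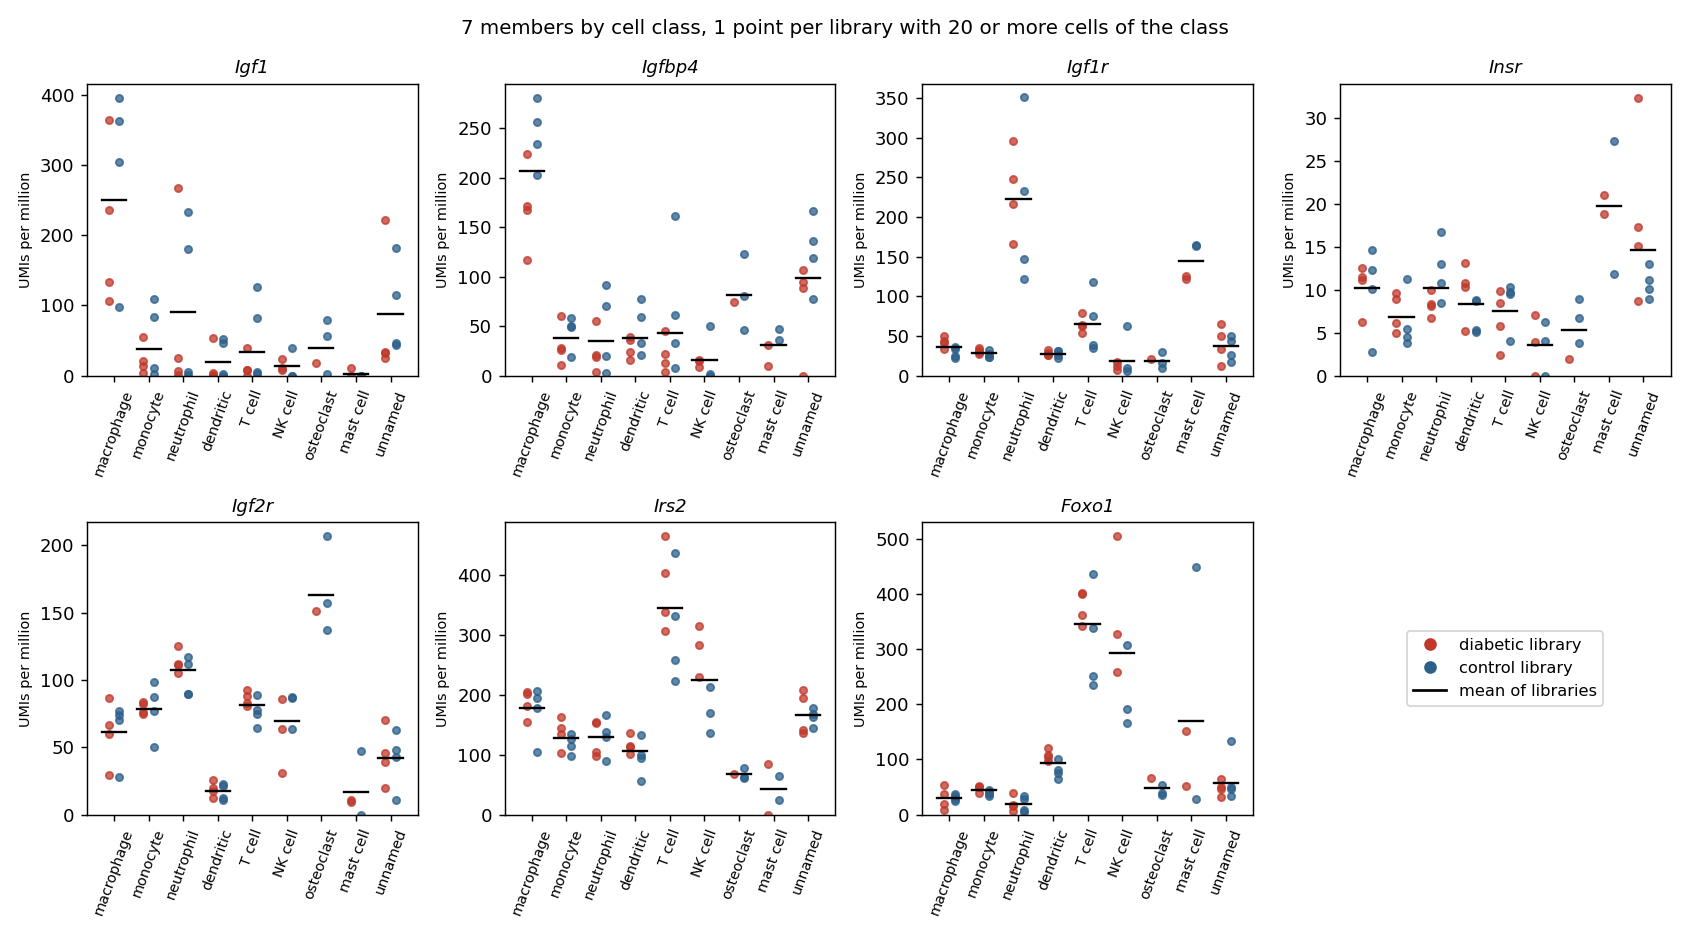
CPM of 7 members (1 panel each, axes from 0, scales differ) in 8 named classes and the unnamed cluster. Each point is a library with 20 or more cells of the class, red for diabetic and blue for control, and black bars are means over libraries; fibroblast-like cells, with 1 such library, are not drawn. Igf1 and Igfbp4 peak in macrophage-like cells, Igf1r in neutrophil-like and mast cell-like cells, Igf2r in osteoclast-like cells, and Irs2 and Foxo1 in T cell-like and NK cell-like cells.

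Insr, the insulin receptor, was low in every class. In all cells it was at 7.77, 7.87, 7.55 and 10.3 CPM in diabetic and at 5.90, 10.2, 9.21 and 13.1 CPM in control wounds. The diabetic level was 1.32-fold that of the control on day 1 (1.02 to 1.70) and 0.775, 0.820 and 0.787 of it on days 3, 5 and 7, with an interval that reached 1.00 on day 5. Among classes the means ran from 3.56 CPM in NK cell-like cells to 19.7 CPM (SD 6.40, n = 4 libraries) in mast cell-like cells, which rest on 8 UMIs. Over the days the wound difference in all cells was -0.10 on the log2 scale (SE 0.18, edgeR adjusted p = 0.825).

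Igf2r, the lysosomal enzyme receptor, was the most even member over libraries. In all cells it was at 84.3, 82.4, 78.7 and 65.3 CPM in diabetic and at 88.8, 67.9, 87.9 and 76.7 CPM in control wounds, so the groups overlapped. Osteoclast-like cells, the large cells with the bone-resorbing lysosomal enzyme genes Ctsk and Acp5, had the highest mean at 163 CPM (SD 30.2, n = 4 libraries), with 152 CPM in diabetic day 3 and 207, 157 and 137 CPM in control days 3, 5 and 7. Of the classes with more than 1 library, neutrophil-like cells followed at 107.6 CPM (SD 12.4, n = 8). The fibroblast-like cells of control day 7 were at 108.4 CPM. Dendritic-like cells were lowest of the classes with 8 libraries at 17.7 CPM (SD 5.41). Every dendritic-like level, 10.7 to 25.3 CPM, was below every neutrophil-like level, 89.7 to 125 CPM. In macrophage-like cells it was at 29.2 and 28.2 CPM on day 1, from 7 and 10 UMIs, and at 59.7 to 86.9 CPM on the later days, a day effect that did not pass (edgeR, adjusted p = 0.105).

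Of the adaptors, Irs1 was all but absent. It had 14 UMIs in 187913826, and the libraries with 0 UMIs allow a level of up to 0.140 to 0.159 CPM (3 counts of the total). Macrophage-like cells held 6 of them, and 4 lay in the 22 fibroblast-like cells of control day 7, a level of 8.34 CPM there. It did not pass the filter on low counts in any of the edgeR tests. In the wound test of T cell-like cells DESeq2 gave all 8 members an adjusted p and called 0.

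Irs2 was present in every class. In all cells it was at 109, 147, 180 and 186 CPM in diabetic wounds and at 98.1, 141, 158 and 197 CPM in control wounds, higher on day 7 than on day 1 in both, with diabetic over control ratios of 0.945 to 1.14. The day effect did not pass in all cells (edgeR, adjusted p = 0.469). T cell-like cells had the highest mean at 344 CPM (SD 84.6, n = 8 libraries), before NK cell-like cells at 224 CPM (SD 67.0, n = 6) and macrophage-like cells at 178 CPM (SD 34.3, n = 8), neighbours whose ranges overlapped.

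In T cell-like cells Irs2 was at 337, 402, 464 and 306 CPM in diabetic wounds and at 331, 257, 223 and 436 CPM in control wounds. The diabetic level was 1.56-fold that of the control on day 3 (1.34 to 1.83), 2.08-fold on day 5 (1.80 to 2.41) and 0.702 of it on day 7 (0.643 to 0.766). The Trdc cluster, with 709 CPM of Irs2 against 156 CPM in the Ctla4 cluster, made up 52.7, 63.6, 54.3 and 24.7% of T cell-like cells in diabetic wounds and 47.1, 34.8, 32.4 and 55.0% in control wounds, so on each of days 3, 5 and 7 its share lay on the same side of the control as the ratio.

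Within the Trdc cluster Irs2 was at 628, 511, 809 and 826 CPM in diabetic and at 488, 726, 439 and 751 CPM in control wounds. In the Ctla4 cluster it was at 73.0, 215, 141 and 184 CPM in diabetic and at 195.5, 81.6, 146 and 168 CPM in control wounds. On day 3 the diabetic level of the Trdc cluster was thus the lower, on day 5 it was still the higher, and on day 7 the 2 intervals overlapped (755 to 901 against 701 to 803). Cells with an Igf1r UMI had an Irs2 UMI more often than the rest of the thinned T cell-like cells, in 43.0 against 24.5% over all libraries. Within libraries the share was higher in 8 of 8, with exact intervals apart in diabetic day 7 and control day 1. Both genes were higher in the Trdc cluster.

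Foxo1 was led by the same lymphocyte classes as Irs2. T cell-like cells had a mean of 346 CPM (SD 71.3, n = 8 libraries) and NK cell-like cells of 292 CPM (SD 122, n = 6), whose ranges overlapped. Mast cell-like cells followed with a mean of 169.6 CPM (SD 193, n = 4 libraries, 27.3 to 448 CPM from 62 UMIs in all), which overlapped with every class around it. Dendritic-like cells had 94.0 CPM (SD 18.8, n = 8), and their highest library, at 121 CPM, was below the lowest of the T cell-like and NK cell-like libraries. Neutrophil-like cells had 19.1 CPM (SD 12.9).

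In all cells Foxo1 was at 41.4, 61.6, 95.3 and 117 CPM in diabetic wounds and at 37.7, 54.2, 42.6 and 65.4 CPM in control wounds. The diabetic level was higher on each day, 1.10-fold on day 1 (0.990 to 1.22), 1.14-fold on day 3 (1.05 to 1.23), 2.24-fold on day 5 (2.08 to 2.40) and 1.79-fold on day 7 (1.69 to 1.89). Over the days the difference was 0.64 on the log2 scale (SE 0.23) and did not pass (edgeR, adjusted p = 0.440, between 0.297 and 0.758 over 12 alternatives). T cell-like cells, which held 34.1% of the Foxo1 UMIs, were 2.35, 3.18, 11.5 and 18.3% of cells in diabetic and 2.31, 5.20, 5.21 and 10.7% in control wounds, so on days 5 and 7 their share was higher in the diabetic library as well.

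Within T cell-like cells Foxo1 was at 362, 399, 402 and 341.5 CPM in diabetic and at 436, 252, 235 and 339 CPM in control wounds. The ratio was 0.831 on day 1 (0.672 to 1.03), 1.59 on day 3 (1.36 to 1.86), 1.71 on day 5 (1.48 to 1.98) and 1.01 on day 7 (0.920 to 1.10). Within the Ctla4 cluster the levels were 263, 311, 292 and 306 CPM in diabetic and 429, 254, 202 and 244 CPM in control wounds, and within the Trdc cluster 471, 451, 520 and 494 CPM in diabetic and 444, 244, 328 and 450 CPM in control wounds. On days 3, 5 and 7 the diabetic level was thus the higher in both clusters. In neutrophil-like cells a day effect on Foxo1 passed (edgeR, 1.54 higher on the log2 scale on day 7 than on day 1, adjusted p = 0.0285) and was lost in the cells whose names agreed (1.72 higher, adjusted p = 0.0901), without day 1 (adjusted p = 0.292) and without day 7 (adjusted p = 0.233). The Foxo1 call was also lost with cells named singly, and it was kept in 10 of 14 alternative settings. By CPM, which uses no normalization factors, Foxo1 went from 6.15 on day 1 to 38.3 on day 7 in diabetic wounds. In control wounds it went from 4.80 to 28.2 CPM, a larger step than the fitted one in both.

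The wound tests called no member. In all cells and in 5 classes 0 of 7, 7, 7, 7, 6 and 6 members tested passed (edgeR, 4 diabetic against 4 control libraries with day as a block, whole library, macrophage-like, monocyte-like, neutrophil-like, dendritic-like and T cell-like in this order), where 0% of all genes tested passed except 0.0109% in dendritic-like cells. At an unadjusted p under 0.05 there were 2, 2, 1, 0, 2 and 1 members, where 11.3, 7.99, 9.04, 8.06, 6.23 and 3.17% of all genes were, and DESeq2 called 0 members in each, where it called 0.623, 0.752, 1.22, 1.06, 0.208 and 0% of all genes. The day tests called 0 of 7 members in all cells, 1 in macrophage-like, 2 in monocyte-like, 4 in neutrophil-like and 0 in dendritic-like and T cell-like cells, where 0, 1.55, 1.94, 25.7, 0.463 and 0.0781% of all genes tested passed. For the 3 day tests with 0 calls, 4, 3 and 1 members had an unadjusted p under 0.05, where 19.9, 11.8 and 5.81% of all genes did. In the 6 day tests, in the order above, DESeq2 called 3, 1, 2, 4, 0 and 1 members, where it called 13.4, 4.29, 4.12, 27.4, 1.61 and 0.809% of all genes.

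By the size of the difference on a single day, whole libraries had 0 of 7 members at 2-fold or more on days 1 and 3, where 5.82 and 9.92% of all genes with 20 or more UMIs were. On day 5 there were 4 of 7 (Igf1, Igfbp4, Igf1r and Foxo1, where 30.1% of genes were), and on day 7 there was 1 of 7 (Igfbp4, where 11.5% were). In macrophage-like cells 1 of 4 members with enough UMIs was past 2-fold on day 1 (Igf1, 15.8% of genes), 0 of 7 on day 3 (7.78%), 1 of 7 on day 5 (Igf1r, 12.2%) and 0 of 7 on day 7 (7.58%).

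**Figure D5:**
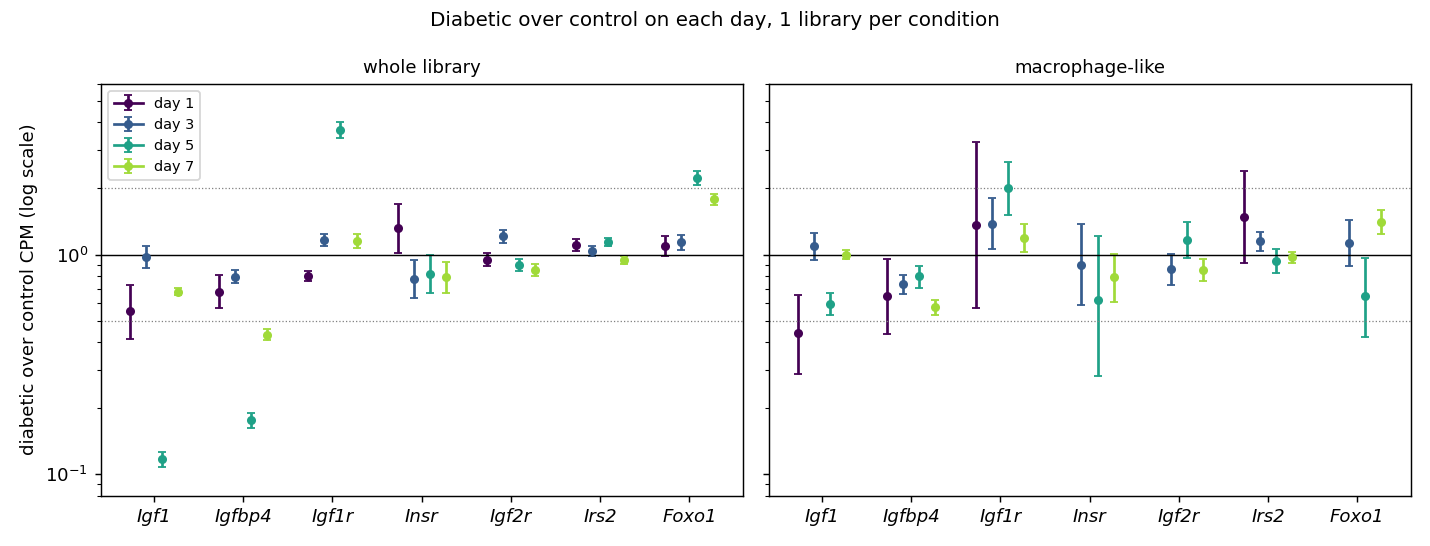
Diabetic over control level (log axis) of 7 members on days 1, 3, 5 and 7, in whole libraries (left) and in macrophage-like cells (right), 1 library per condition. Bars are exact 95% intervals for counting error, dotted lines mark 2-fold, and members with under 20 UMIs in both libraries together are not drawn. The day 5 points of Igf1 and Igfbp4 at 0.118 and 0.176 in whole libraries stand at 0.596 and 0.796 in macrophage-like cells, and Igfbp4 is below 1 on all 4 days in both panels.

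The other genes of the pathway were taken from a list of 92 genes that includes the members, of which 87 had a row in at least 1 table. Rows for the other ligands Igf2, Ins1 and Ins2, and for Igfbp1 and Irs4, were not among them. Of the binding proteins, Igfbp6, which prefers IGF2, was at 54.4, 26.0, 16.9 and 12.5 CPM in diabetic wounds and at 57.9, 41.7, 8.66 and 21.3 CPM in control wounds. Igfbp7 was at 0.737 to 13.4 CPM, Igfbp5 at 0.0466 to 11.1 CPM and Igfbp3 at 0.0466 to 3.69 CPM, and the orphan receptor Insrr and the binding protein proteases Pappa and Pappa2 were at 0 to 0.641 CPM.

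Of the 56 to 68 other pathway genes tested, 0 passed in each of the 6 wound tests by edgeR, with 9, 9, 9, 4, 6 and 2 at an unadjusted p under 0.05 in the order above, where 11.3, 7.99, 9.04, 8.06, 6.23 and 3.17% of all genes were. DESeq2 called 2 of 68 in whole libraries (Il7r and Sesn1), where it called 0.623% of all genes. It called 1 of 41 in macrophage-like cells (Pik3r5), where it called 0.752% of all genes. In monocyte-like, neutrophil-like, dendritic-like and T cell-like cells it called 0, where it called 1.22, 1.06, 0.208 and 0% of all genes. In the day tests 3 of 67 passed in macrophage-like cells, where 1.55% of all genes did, all higher on day 7 than on day 1: Bcl2l11, a FoxO target that promotes cell death (1.28 on the log2 scale, adjusted p = 0.0275), the interleukin 7 receptor Il7r (1.13, adjusted p = 0.0314), and Socs3, which brakes cytokine and insulin receptors (0.98, adjusted p = 0.0367, all by edgeR). DESeq2 called 6 there, adding Ccng2, Klf2 and Pik3r1, where it called 4.29% of all genes. The median difference over the pathway genes there was 0.24 and over all genes tested 0.10. In monocyte-like cells 3 of 61 passed (1.94% of all genes did, and DESeq2 called 4 with 4.12% of all genes), Igfbp6 (fell by 2.02), S1pr1 (1.88 higher), the exit receptor of lymphocytes, and Il7r (0.04 between days 7 and 1, with the change on the days between).

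In neutrophil-like cells 19 of 64 other pathway genes passed, 5 higher and 14 lower on day 7, where 25.7% of all genes passed and 1319 were higher and 1468 lower. DESeq2 called 21 there, with 27.4% of all genes. Without normalization factors the median of all genes was 1.19 on the log2 scale against 0.13 with them, 3479 genes were called higher and 341 lower, and 16 other pathway genes passed, 13 higher and 3 lower. Relative to either scaling Igfbp6 (fell by 2.85 with factors and fell by 1.81 without) and Klf2, a FoxO target that keeps leukocytes quiescent (fell by 1.81 and fell by 0.73), were among those called lower. Called higher by both were the lipid phosphatase Inppl1, S1pr1, Il7r, the adaptor Gab1, and Sos1, which activates RAS in the MAPK branch. For Bcl6, Cdkn1b and Ptpn1, called lower with factors, the sign turned without them. The neutrophil marker sum fell over these days from 62730 to 14770 CPM in diabetic and from 51260 to 14240 CPM in control wounds within the class, and its part in these calls was not tested. In T cell-like cells 0 of 61 passed by edgeR, with 5 at an unadjusted p under 0.05, where 5.81% of all genes were, and 0 called by DESeq2. In whole libraries 0 of 70 passed by edgeR, with 19 at an unadjusted p under 0.05, where 19.9% of all genes were, and DESeq2 called 15, where it called 13.4% of all genes.

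The genes most like each member were found over the 53 sums of a class in a library, among 5791 genes, by Pearson r of log2(CPM + 10). Igf1 was most like Gas6 (0.911), Gdf15 (0.894) and Ccl8 (0.887), and Igfbp4 most like Gas6 (0.882), Rab11fip5 (0.867) and Hpgds (0.862). Igf1r was most like Il1f9 (0.890), Fas (0.883) and Sec22c (0.866), and Foxo1 most like Nrip1 (0.942), Ptp4a2 (0.940) and Pde7a (0.938). Irs2 was most like Jmy (0.814), Ski (0.809) and Rora (0.804). Igf2r had its highest likeness with Atp1b3 (0.744) and Insr with Rab24 (0.620). Among the members themselves the highest r besides Igf1 with Igfbp4 was that of Irs2 with Foxo1 (0.644), whereas Igf1 with its receptor Igf1r had -0.08. Sums of 1 library share its depth and free RNA, so these values describe the sums and carry no test.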

How the data were processed

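Single-cell RNA-seq libraries of CD45+ wound cells were deposited as 1 table of UMI counts per library, genes by cells. The counts deposited were made by the authors from reads trimmed with fastp 0.20.1 (per the submitters' processing notes), with UMIs extracted, reads aligned and UMIs counted per gene and cell. The notes name mm9 and the study's methods an Ensembl release, so coordinates were taken from the annotation and not from the tables. The kit is given as 10X Genomics in the labels and as BD Rhapsody in the methods. Blank or summary rows were 0 in every table.

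As in the study's methods, a cell needed over 200 genes and less than 20% of its UMIs from mitochondrial genes, which left 35158 of 38959 barcodes. They were clustered with scanpy 1.11.5 (2000 variable genes without the pathway list, 10 components, Leiden resolution 0.8) and named from marker lists. A cluster needed at least 3 markers detected in 10% of its cells. Scrublet marked 0.193% of cells, too few to have worked, so doublets were kept in and alternatives without high scores were run. Names were rebuilt here and can differ from the study's.

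UMIs were summed per library and class with at least 20 cells. Sums were tested with edgeR 4.0.16 (quasi-likelihood F test, TMM, filterByExpr, Benjamini-Hochberg threshold 0.05 over all genes tested, R 4.3.3) for the wound with day as a block and for the 3 day terms together with wound in the fit. As each condition had 1 library of 5 pooled mice, the error of these tests is the wound-by-day spread, and p-values measure the spread between these libraries. DESeq2 1.42.0 was an alternative. The scripts were tested on simulated data. Single days have no test, and ratios carry exact intervals for counting error only, among genes with at least 20 UMIs in both sums. Floors are 3 counts.

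Named genes were the 8 members, other genes of the pathway list that passed a test used here or are ligands, binding proteins or receptors, the 3 genes most like each member, and the leading genes of clusters. The members and lists were chosen with earlier results of these data known. Values of 1 gene of the pathway list, and the day test of the other pathway genes in dendritic-like cells, which rests on it, are not reported here.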

Additional observations from a re-analysis of the deposited data

Results flagged for a closer look

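With 1 library per condition a change of the wound ratio between days could not be tested, and the 10 results here stand out because the diabetic over control ratio was above 1 on a day and below 1 on another, each with an exact interval for counting error that leaves out 1, and because these ratios differed by 2-fold or more. The cause of each was not tested.

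Igf1 in neutrophil-like cells had a ratio of 1.47 on day 7 and of 0.111 on day 5, which differ 13.2-fold. In neutrophil-like cells whose cluster and single name agreed, the Igf1 ratio was 0.549 on day 7 and 0.0744 on day 5, so the directions were no longer opposite. Igf1r in whole libraries had 3.68 on day 5 and 0.799 on day 1, a 4.61-fold difference, and Igf1r in neutrophil-like cells had 1.69 on day 5 and 0.845 on day 1, a 2.0-fold difference. In the neutrophil-like cells whose names agreed the Igf1r ratios were 1.2 and 0.827, and the exact intervals of the day 5 levels overlapped. In T cell-like cells Igf1r had 1.84 on day 5 and 0.724 on day 7, which differ 2.54-fold.

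Foxo1 in neutrophil-like cells had 1.84 on day 3 and 0.477 on day 5, a 3.86-fold difference, but 2.54 and 1.64 in the cells whose names agreed, both above 1. In macrophage-like cells Foxo1 had 1.41 on day 7 and 0.651 on day 5, a 2.17-fold difference, and with cells named singly 1.5 and 1.29, both above 1. Irs2 in T cell-like cells had 2.08 on day 5 and 0.702 on day 7, which differ 2.96-fold, and in dendritic-like cells 1.80 on day 1 and 0.848 on day 5, which differ 2.12-fold. In monocyte-like cells Insr had 1.62 on day 1 and 0.442 on day 3, a 3.67-fold difference, and Igfbp4 had 1.19 on day 3 and 0.444 on day 5, a 2.68-fold difference. In monocyte-like cells whose names agreed Igfbp4 had 0.902 and 0.346 on these days, both below 1.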

How the results depend on the processing

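Of the tests, the number of members called in the wound tests stayed at 0 in every alternative that was run, except without a filter on low counts, where it was 1 in macrophage-like, 1 in dendritic-like and 2 in T cell-like cells. In the day tests the number of members called changed from 0 to 3 in whole libraries with DESeq2 and to 1 without the filter, from 1 to 3 in macrophage-like cells without the filter and to 2 with cells named singly, and from 2 to 1 in monocyte-like and from 4 to 2 in neutrophil-like cells both with cells named singly and with cells whose names agreed. It changed from 0 to 2 in dendritic-like cells without the filter, and from 0 to 1 with DESeq2 and to 2 without the filter in T cell-like cells. With each day left out in turn the number called ranged from 0 to 3 in whole libraries (3 without day 5), 0 to 1 in macrophage-like (0 without day 3), 0 to 2 in monocyte-like (0 without day 1 and without day 7), 0 to 5 in neutrophil-like (0 without day 1, 2 without day 7), 0 to 1 in dendritic-like and 0 to 1 in T cell-like cells (1 without day 5 in both). These counts stand without the share of all genes called in the same fits. They therefore describe how the calls moved and say nothing particular to the members. The share of macrophage-like cells with an Igf1 UMI was 20.9% thinned and 50.8% unthinned. Of 156 member ratios on single days 23 were at 2-fold or more, and 18 to 24 were in the alternatives. Of all genes, 5.82 to 30.1% were on a day in whole libraries and 7.58 to 15.8% in macrophage-like cells. This count therefore says nothing particular to the members either.

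Signs of log2 differences also turned. On single days Igf1 on day 7 in neutrophil-like cells was at -0.86 with cells named singly and at -0.87 with cells whose names agreed, Foxo1 on day 5 there at 0.71 with both, and Igfbp4 on day 3 in monocyte-like cells at -0.15 with both. With cells named singly Irs2 on day 7 in monocyte-like cells was at -0.16 and Foxo1 on day 5 in macrophage-like cells at 0.37, and with CPM scaled by TMM factors Igf2r on day 5 in whole libraries was at 0.06. For the wound effect Igf2r in whole libraries was at -0.004 with DESeq2, -0.05 without normalization factors, -0.03 without the filter and -0.0023 with at least 500 genes per cell, Foxo1 in macrophage-like cells at -0.07 with DESeq2, and Irs2 there at -0.01 in cells whose names agreed. Insr in monocyte-like cells was at -0.22 and -0.18 with cells named singly and with agreeing names, Irs2 in neutrophil-like cells at -0.03 without normalization factors, at resolution 1.6, with cells named singly and with agreeing names, Igf1r in dendritic-like cells at -0.04 without the highest 5% of doublet scores and at -0.19 with agreeing names, and Igf1r in T cell-like cells at -0.03 without the day block. With each day left out in turn the ranges were -0.13 to 0.10 for Igf2r in whole libraries, -0.31 to 0.25 for Foxo1 in macrophage-like cells, and -0.12 to 0.81 for Insr, -0.13 to 0.23 for Igf2r and -1.11 to 0.03 for Igf1 in monocyte-like cells. They were -1.18 to 0.49 for Igf1, -0.02 to 0.56 for Igf1r and -0.05 to 0.24 for Irs2 in neutrophil-like cells, -0.01 to 0.19 for Igf2r and -0.06 to 0.14 for Igf1r in dendritic-like cells, and -0.18 to 0.32 for Igf1r and -0.05 to 0.23 for Insr in T cell-like cells. The cause of these changes was not tested.

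With each day left out both conditions of that day went, and 6 libraries remained. In the fit of monocyte-like cells with agreeing names control day 7 had 19 cells and dropped out. Without normalization factors the median of all genes in the day test was 0.60 in whole libraries and 1.19 in neutrophil-like cells on the log2 scale. The wound tests were paired by day through the day block, and a block by replicate number could not be fitted because each condition held 1 library. A count of 0 allows a level of up to 27.3 to 35.4 CPM in mast cell-like cells and of up to 8.45 to 12.5 CPM in macrophage-like cells of day 1.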

Other observations

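Mast cell-like cells, with 23 to 25 cells in each of 4 libraries, had 122 and 126 CPM of Igf1r in diabetic days 1 and 3 and 165 and 164 CPM in control days 1 and 3, from 57 UMIs in all. The 2 diabetic values lay below the 2 control values, and no test was made on these few cells.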
